A study of Mus musculus with 24 samples.

Results

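The genes described here code for the proteins of the cytosolic ribosome, the particle that translates nuclear-encoded mRNAs. Members were the rows whose symbol is Rpl or Rps with a number and at most 1 letter a, l, x or y, or is Rplp0, Rplp1, Rplp2 or Rpsa, with at least 10 counts in at least 6 libraries. Of 55401 genes in the count table, 83 had such a symbol and 81 passed the count minimum. By symbol they comprised 32 small subunit genes, 46 large subunit genes and the 3 stalk genes. Among them, Rpl6l, Rpl32l and Rps4l are annotated as processed pseudogenes and not as protein-coding genes. Rpl10l had no count and Rpl39l had too few. At the low end of the rule, Rpl3l passed with 605 counts over all 24 libraries, and Rpl39l had 44.

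RNA came from the nucleus accumbens, a ventral striatal region of reward and motivation, punched on both sides from mice of the strains C57BL/6J or DBA/2J aged 8 to 9 weeks. Which strain, which sex and how many mice stand behind a library is not stated in the labels. Neuropathic pain was modelled on the left sciatic nerve by tibial spared nerve injury (SNI), and sham-operated mice had the nerve left alone. All of them received an AAV8 vector in the accumbens, AAV8-hSyn-Mef2c-Egfp (Mef2c) or AAV8-hSyn-Egfp (Gfp). The hSyn promoter drives expression in neurons, MEF2C is an activity-dependent transcription factor, and no group went without a vector. The 4 groups were SNI Mef2c, SNI Gfp, Sham Mef2c and Sham Gfp, with 6 libraries each.

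In a mammalian ribosome the small subunit decodes the mRNA and the large subunit joins amino acids, and each ribosomal protein is normally present once per particle except for the stalk proteins. Ribosomal protein mRNAs begin with a 5' terminal oligopyrimidine (TOP) tract, through which mTOR signalling and the protein LARP1 set their translation and stability together. In neurons, ribosomes also work in dendrites near synapses, and ribosomal protein mRNAs are found there.

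Between 25477019 and 36570108 counts were assigned to genes per library. Counts were made over the whole gene span, introns included, without regard to strand, so 13 of the 81 members share reads with an overlapping gene that has more counts. These were Rpl3, Rpl13, Rpl15, Rpl23a, Rpl24, Rpl31, Rpl32l, Rpl35, Rpl35a, Rps4l, Rps10, Rps14 and Rps18, and their values are uncertain. A further 298 rows are named as pseudogenes of 60 members and held 325298 counts, 8.03% of the 4052574 counts of the members. For 22 members these rows held more than 10% of the member's own count, and for Rpsa, the laminin receptor protein of the small subunit, they held more counts than the gene did, so the level of Rpsa is uncertain. The list of 11 medium spiny neuron markers, the defining cells of this tissue, averaged 8.44, 8.23, 8.11 and 8.15 log2 CPM (CPM being counts scaled to a common library size) in SNI Mef2c, SNI Gfp, Sham Mef2c and Sham Gfp. Mef2c itself stood between 474 and 832 CPM in SNI Mef2c, against 133 to 221 CPM in SNI Gfp. In Sham Mef2c it reached 469 CPM, but libraries 2 and 5 of that group had 125 and 123 CPM, below the 139 to 212 CPM of Sham Gfp. Counts of members called and the members' median log2 fold changes that rest on Sham Mef2c are therefore given with and without these libraries. Some other values are also given both ways. The rest, including values of single members, are given with these libraries only. SNI Mef2c library 1 stood apart in its tissue markers, with medium spiny neuron markers summing to 2164 CPM (5379 to 6380 CPM in the other libraries of its group) and cortical neuron markers to 1688 CPM (182.1 to 518.8 CPM).

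Ribosomal protein genes took about the same small part of each library, and a little more in Sham Gfp. Their share of all counts was 0.496% ± 0.0391 in SNI Mef2c, 0.532% ± 0.0259 in SNI Gfp, 0.519% ± 0.0322 in Sham Mef2c and 0.585% ± 0.0423 in Sham Gfp (SD, n = 6 each). Single libraries ranged over 0.434 to 0.534% in SNI Mef2c, 0.493 to 0.560% in SNI Gfp, 0.482 to 0.575% in Sham Mef2c and 0.531 to 0.636% in Sham Gfp. Without libraries 2 and 5 the mean of Sham Mef2c was 0.508%, and without library 1 that of SNI Mef2c was 0.509%. Every pair of groups overlapped, SNI Mef2c and Sham Gfp by a narrow margin. Both subunits followed this order. The small subunit genes held 0.197%, 0.213%, 0.207% and 0.235% of counts in SNI Mef2c, SNI Gfp, Sham Mef2c and Sham Gfp, and the large subunit genes 0.273%, 0.291%, 0.286% and 0.319%. Mitochondrially encoded transcripts ran the other way, with shares of 1.86%, 1.71%, 1.76% and 1.62% in the same groups. With the mitochondrially encoded counts left out of the total, single libraries ranged over 0.443 to 0.5435% in SNI Mef2c and 0.502 to 0.569% in SNI Gfp. In Sham Mef2c they then ranged over 0.490 to 0.585%, and in Sham Gfp over 0.540 to 0.645%. Any other part of these transcripts in the ribosomal protein difference was not tested.

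**Figure D1:**
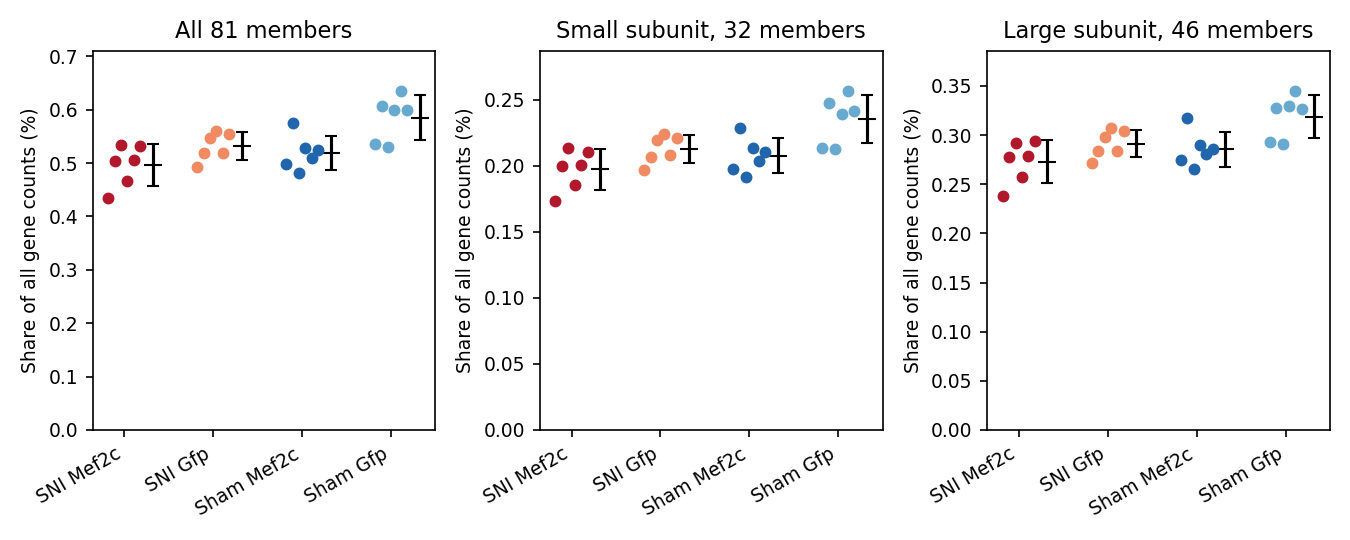
Share of all gene counts (%) held by the 81 ribosomal protein genes, the 32 small subunit genes and the 46 large subunit genes. Each point is 1 library and the black mark is the mean ± SD of 6 libraries. The mean share of all members was 0.585% in Sham Gfp and between 0.496% and 0.532% in the other groups, with overlap of single libraries.

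The order of the groups was alike across members. The highest group mean was in Sham Gfp for 76 of 81 members, in Sham Mef2c for 3, and in SNI Gfp and SNI Mef2c for 1 each. The lowest group mean was in SNI Mef2c for 60 members, in Sham Mef2c for 19, in SNI Gfp for 2 and in Sham Gfp for 0. The same counts were not made over all genes tested. All members were read from the same 24 libraries, so they do not repeat the comparison of groups. The average over the members' log2 CPM was 5.49 (SD 0.094) in SNI Mef2c, 5.55 (SD 0.066) in SNI Gfp, 5.51 (SD 0.075) in Sham Mef2c and 5.67 (SD 0.092) in Sham Gfp.

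Levels differed far more between members than between groups. Per length of the gene span, the deposited FPKM (counts scaled by gene length and library total) was highest for Rplp1, at 122, a stalk protein that helps recruit elongation factors. It was followed by the decoding-site protein gene Rps15 at 110, and by Rpl8 at 82.7, Rpl41 at 73.2 and Rps21 at 72.4 FPKM. The lowest were Rpl3l at 0.0958, Rpl29 at 1.01, Rps27l at 2.02, Rpl11 at 2.72 and Rpl21 at 2.90 FPKM, against a median of 15.7 over the members. The FPKM of Rpl11 was held down by a long span of 25164 bases, since its mean of 68.5 CPM lay above the members' median of 57.6 CPM. Per kilobase of annotated exon, Rplp1 and Rps15 still led, followed by Rpl4, which lines the exit tunnel and had the highest mean of any member, 348 CPM. The median SD over the 24 libraries was 0.13 on the log2 CPM scale for members and 0.21 for all genes tested. Members also stood higher, with a median level of 57.6 CPM against 10.9 CPM over all genes tested. The SDs were not compared at matched level. The largest SDs were those of Rpl3l (0.33), Rps4l (0.30), Rpl29 (0.27), Rpl17 (0.23) and Rps2 (0.21).

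The comparison of the Mef2c and Gfp vectors in sham mice was the one in which ribosomal protein genes passed the test. Of the 81 members, 26 were lower in Sham Mef2c than in Sham Gfp and 0 were higher, at an adjusted p under 0.05 in edgeR's quasi-likelihood test over all 23738 genes. This is 32.1% of the members, while 7.93% of all genes tested were called lower and 1.48% higher. The changes were small. The median log2 fold change over the 81 members was -0.15, against 0.02 over all genes, and 78 members were negative. An unadjusted p under 0.05 was found for 54 members and for 21.2% of all genes. The 26 called comprised 13 small subunit, 11 large subunit and 2 stalk genes, with log2 fold changes from -0.70 to -0.16. They lay on 13 chromosomes, had a median level of 53.5 CPM (64.8 CPM for the other 55), and 12 of them hold snoRNA genes within their span, as do 17 of the other 55. Members not called lay between -0.23 and 0.18 in log2 fold change.

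**Figure D2:**
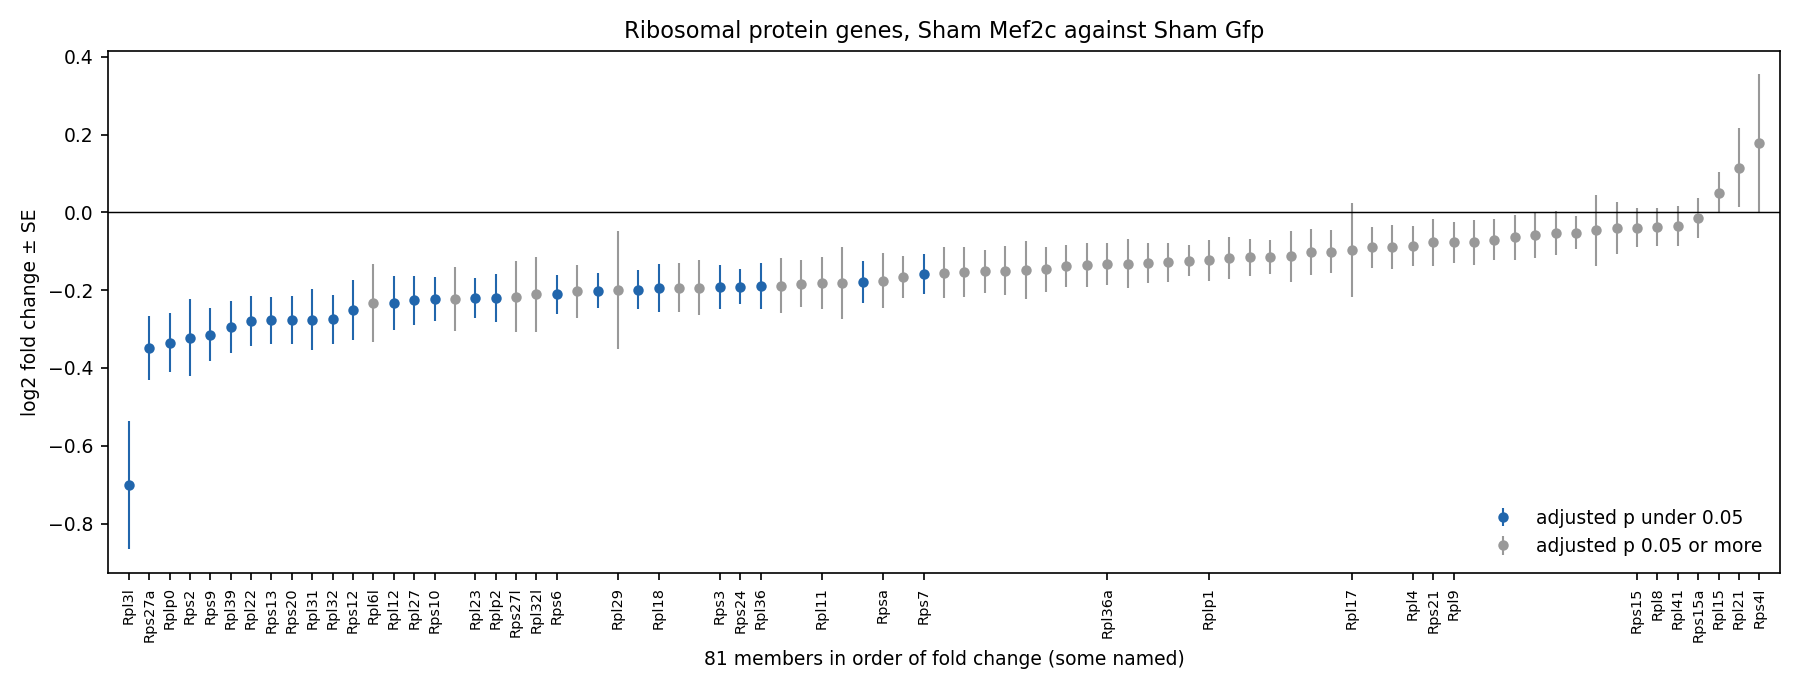
Log2 fold change of each of the 81 members in Sham Mef2c against Sham Gfp, ordered by size with some of them named, with bars of ± 1 SE from the edgeR fit and 6 libraries per group. Blue points are the 26 members with an adjusted p under 0.05, all below 0, and 78 of the 81 points lie below 0.

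Among small subunit genes, Rps9, whose protein sits near the mRNA entry channel, had the smallest p. Its lowest, median and highest libraries were 118, 121 and 130 CPM in Sham Mef2c, against 129, 155 and 167 CPM in Sham Gfp. The groups touched at a single pair of libraries, the highest of Sham Mef2c and the lowest of Sham Gfp. The log2 fold change was -0.31 (SE 0.068, edgeR adjusted p = 0.00264). Rps20, part of the head of the small subunit, had 65.8, 66.8 and 72.2 CPM in Sham Mef2c, against 69.6, 83.1 and 93.2 CPM in Sham Gfp (log2 fold change -0.28, SE 0.061, edgeR adjusted p = 0.00326). Here too only the lowest Sham Gfp library reached into the range of Sham Mef2c.

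Rps27a, which is made as a fusion with ubiquitin and so also supplies free ubiquitin, fell the most among small subunit genes. It had 26.5, 29.4 and 32.01 CPM in Sham Mef2c, against 32.6, 36.4 and 41.4 CPM in Sham Gfp (log2 fold change -0.35, SE 0.082, edgeR adjusted p = 0.00575). All 6 Sham Mef2c libraries lay below all 6 Sham Gfp libraries. Rps6, the substrate of the S6 kinases downstream of mTOR, averaged 50.7 ± 2.74 CPM in Sham Mef2c and 58.6 ± 3.996 CPM in Sham Gfp (SD, n = 6 each), with a log2 fold change of -0.21 and an adjusted p of 0.00656 in edgeR. Rps13 (-0.28), Rps24 (-0.19) and Rps10 (-0.22) also passed with adjusted p between 0.00282 and 0.00997 in edgeR. Rps24 is one of the genes mutated in Diamond-Blackfan anaemia in humans. Rps3, Rps2, Rps12 and Rps7 passed with larger adjusted p, from 0.0325 to 0.0493. Rps15, the member with the highest FPKM of the small subunit, did not pass (log2 fold change -0.04, SE 0.049, edgeR adjusted p = 0.714), nor did Rpsa (-0.18, adjusted p = 0.137).

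The 3 stalk genes code for proteins that form a flexible arm of the large subunit and engage the elongation GTPases. Rplp0, their base, had 41.7, 42.3 and 44.4 CPM as lowest, median and highest value in Sham Mef2c, against 44.5, 53.2 and 61.7 CPM in Sham Gfp. The groups did not overlap, and the Sham Gfp libraries were the more spread. The log2 fold change was -0.34 (SE 0.075, edgeR adjusted p = 0.00394). Rplp2 was also lower, with 67.02, 73.1 and 81.4 CPM in Sham Mef2c, against 73.2, 89.1 and 93.9 CPM in Sham Gfp (log2 fold change -0.22, SE 0.062, edgeR adjusted p = 0.0244), and the groups overlapped. Rplp1, the partner of Rplp2, did not pass (log2 fold change -0.12, SE 0.053, edgeR adjusted p = 0.171).

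Among large subunit genes, Rpl32, Rpl39, Rpl22 and Rpl23 passed with adjusted p between 0.00439 and 0.00570 in edgeR and log2 fold changes from -0.29 to -0.22. Rpl22, an RNA-binding protein that mouse ribosomes can do without, had 64.6, 67.4 and 69.1 CPM in Sham Mef2c, against 70.0, 81.7 and 91.6 CPM in Sham Gfp (log2 fold change -0.28, SE 0.064, edgeR adjusted p = 0.00459). Every Sham Mef2c library was below every Sham Gfp library. Rpl39, a small protein of the exit tunnel, had 16.2, 17.3 and 19.3 CPM in Sham Mef2c, against 19.6, 21.5 and 23.8 CPM in Sham Gfp (log2 fold change -0.29, SE 0.067, edgeR adjusted p = 0.00443), again without overlap. Rpl27, Rpl31, Rpl12, Rpl36 and Rpl18 passed with adjusted p from 0.0212 to 0.0490.

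Without overlap of the groups and with all 6 Sham Mef2c libraries lower stood 5 of 81 members, Rpl22, Rpl27, Rpl39, Rplp0 and Rps27a. That is 6.17% of the members, and 5.21% of all genes tested were as fully separated in this direction. By this count the members were near the background. With all 6 libraries higher stood 0 members and 0.758% of all genes. Without Sham Mef2c libraries 2 and 5, 16 members (19.8%) were fully separated with Sham Mef2c lower, against 6.0% of all genes, and 0 members and 1.31% of all genes with it higher. Leaving out libraries can only keep or raise such a count, and no other pair was left out. Whether it depended on those libraries in particular was therefore not tested.

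The members whose symbol ends in l are paralogues or copies of other members. Rpl3l, which replaces Rpl3 in ribosomes of striated muscle, had the largest fold change of all members at the lowest level. It had 0.460, 0.560 and 0.739 CPM in Sham Mef2c, against 0.701, 1.00 and 1.35 CPM in Sham Gfp (log2 fold change -0.70, SE 0.164, edgeR adjusted p = 0.00568), and the groups overlapped at 2 libraries of each group. With 605 counts over 24 libraries, its counting error is large. Rps27l, a target of p53, did not pass (log2 fold change -0.22, edgeR adjusted p = 0.161). Rpl6l, Rpl32l and Rps4l are annotated as processed pseudogenes, and none of the 3 passed, with log2 fold changes of -0.23, -0.21 and 0.18. Rps4l, Rpl21 (0.12) and Rpl15 (0.05) were the 3 members with positive log2 fold changes, and none of these passed in edgeR (adjusted p from 0.568 to 0.635).

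**Figure D3:**
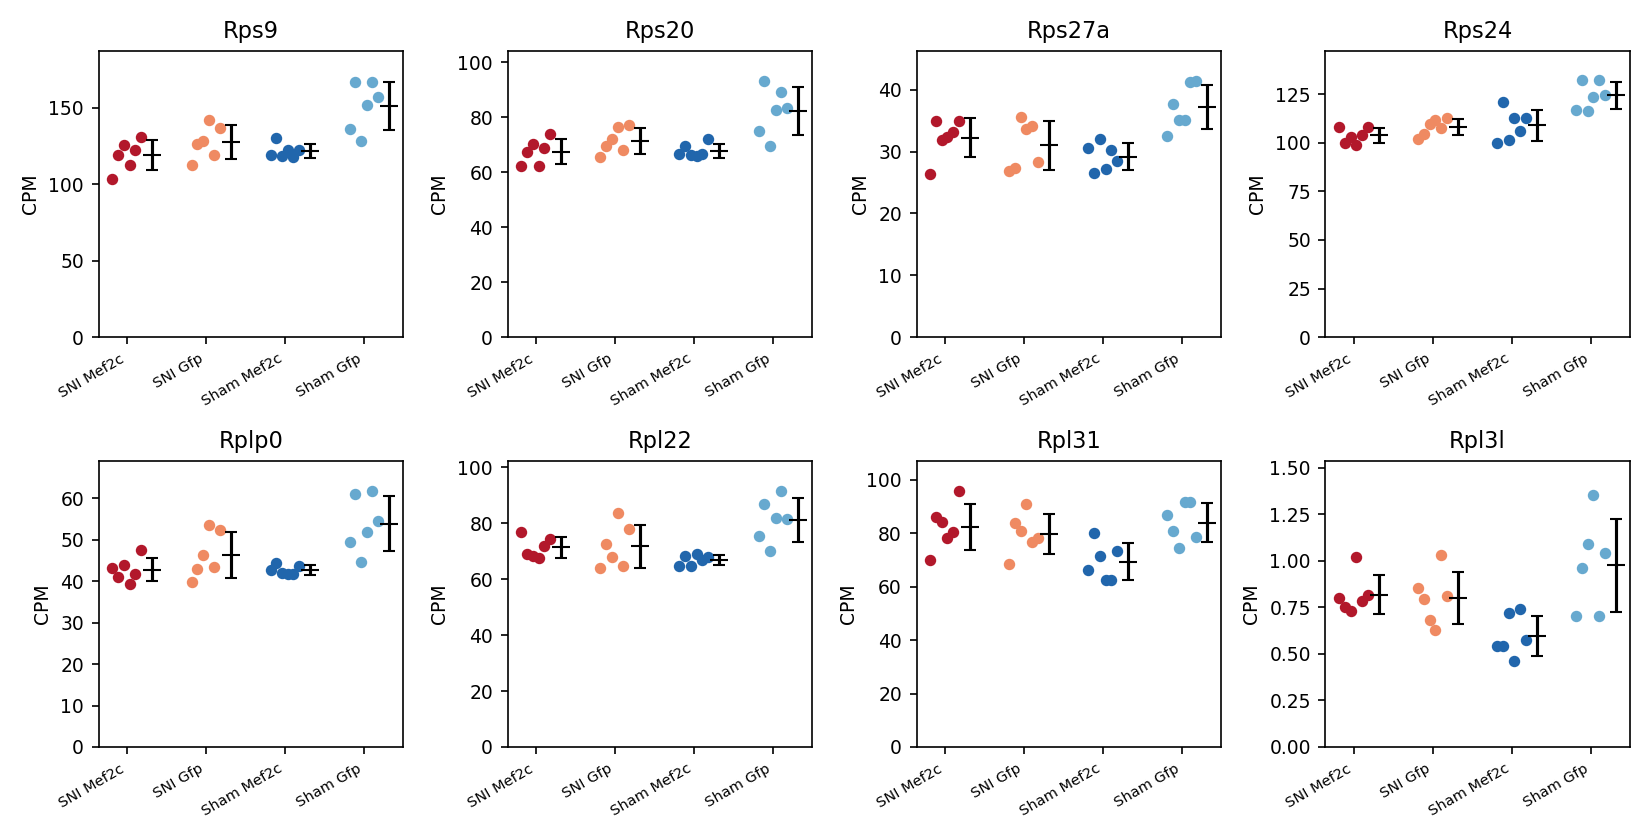
CPM of 8 members in every library, by group, with the mean ± SD of 6 libraries as black marks and axes starting at 0. Rps27a, Rplp0 and Rpl22 show no overlap between Sham Mef2c and Sham Gfp, while Rpl31 stands at a mean of 69.4 CPM in Sham Mef2c and between 79.8 and 84.0 CPM in the other groups.

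How many members passed depended on single libraries. Without 1 library at a time, between 15 and 36 members were called lower. The count was 17, 17 and 15 without Sham Mef2c library 1, 3 or 5, and 17, 17 and 15 without Sham Gfp library 2, 4 or 5. For the fits without 1 library, the share of all genes called was not counted. Leaving out Sham Mef2c libraries 2 and 5 together gave 20 members, 18 of them among the 26, with a median log2 fold change of -0.17 over all 81, while 6.15% of all genes were called lower. The 26 members then lay between -0.75 and -0.17. The limma-voom fit with quality weights called 45 members and 10.8% of all genes lower. In all 24 fits that leave out 1 library, and in every other setting tried that gave a value, 15 of the 26 stayed called. Among them were Rps6, Rps9, Rps10, Rps13, Rps20, Rps24, Rps27a, Rplp0, Rpl3l, Rpl22, Rpl23, Rpl32 and Rpl39, and Rpl3l alone had no value under 1 setting, the filter of 1 CPM.

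Markers of immune cells moved with this comparison. In Sham Mef2c against Sham Gfp, 11 of 13 microglia markers, 11 of 12 lymphocyte markers and 13 of 13 interferon response genes were lower at an adjusted p under 0.05 in edgeR. The summed level of the microglia list ranged from 528 to 1091 CPM in Sham Mef2c and from 1090 to 2015 CPM in Sham Gfp. The interferon response list summed to 39.5 to 56.6 CPM in Sham Mef2c and to 243 to 873 CPM in Sham Gfp, and the lymphocyte list to 17.5 to 35.1 CPM and 36.5 to 142 CPM. No microglia marker was at 0 in any library, whereas the lymphocyte markers Cd8a and Gzmb were at 0 in all 6 Sham Mef2c libraries. Of 7 astrocyte markers 3 were lower, Gfap (-1.87), Aqp4 (-0.64) and Aldh1l1 (-0.43), with edgeR adjusted p from 0.00187 to 0.0140, and the list summed to 1445 to 1603 CPM in Sham Mef2c and 1556 to 2138 CPM in Sham Gfp. Of 13 mitochondrially encoded protein genes 5 were higher and 0 lower, with a median log2 fold change of 0.21 in edgeR. Without Sham Mef2c libraries 2 and 5, 11 microglia, 9 lymphocyte, 13 interferon response and 2 astrocyte genes were lower and 4 mitochondrially encoded genes higher. Cortical neuron markers differed too, with 6 of 9 negative, 3 positive and a median log2 fold change of -1.295, though 0 passed in edgeR. Their median was -0.996 without Sham Mef2c libraries 2 and 5. The part of these cells and transcripts in the members' fold changes was not tested, and in bulk tissue fewer cells of a type and less RNA per cell cannot be told apart. Within SNI Gfp, libraries 4 and 6 had the highest interferon list means (3.75 and 4.63 log2 CPM, the others 1.12 to 2.57). They also had the highest ribosomal protein means (5.63 and 5.59 log2 CPM, the others 5.44 to 5.57), in the reverse order. Within Sham Gfp, library 3 was lowest in both means. Library 2 of that group had the highest interferon mean and library 5 the highest ribosomal protein mean. Within SNI Mef2c, library 4 had the highest interferon mean (1.647 log2 CPM) with a ribosomal protein mean of 5.418. Library 3 of that group had the lowest interferon mean (0.9099 log2 CPM) with 5.551. These libraries were named after their values were seen, and a link was not tested. Within Sham Mef2c the interferon means spanned only 0.95 to 1.51 log2 CPM while the ribosomal protein means spanned 5.43 to 5.64.

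**Figure D4:**
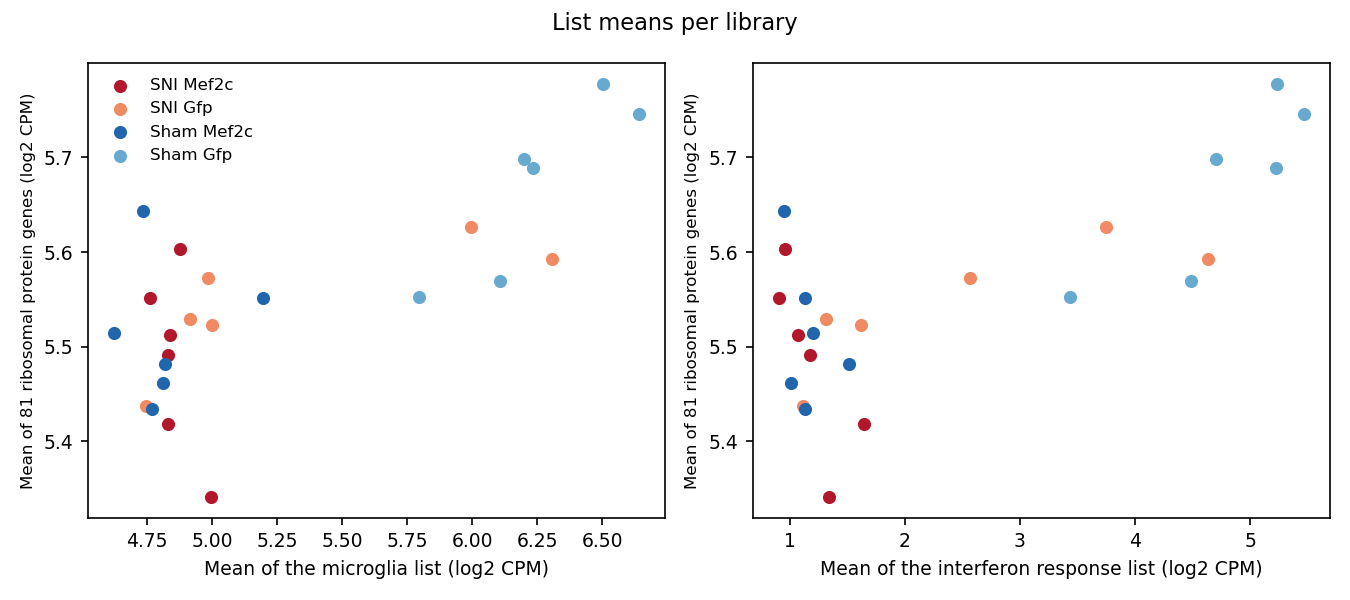
Mean log2 CPM of the 81 ribosomal protein genes against the mean of the microglia list (left) and of the interferon response list (right), 1 point per library, coloured by group. The Sham Gfp libraries lie at interferon means of 3.44 to 5.46 and ribosomal protein means of 5.55 to 5.78. The SNI Gfp libraries lie at 1.12 to 4.63 and 5.44 to 5.63. On every axis the range of SNI Gfp overlaps that of each other group.

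Between injured and sham mice with the Gfp vector, fold changes were mostly negative and no member passed. This comparison and that of the vectors in sham mice share the Sham Gfp libraries, so they are not independent. In SNI Gfp against Sham Gfp, 0 of 81 members passed in edgeR in either direction, as did 0.0% of all genes, while 38 of 81 members and 12.3% of all genes had an unadjusted p under 0.05. The median log2 fold change was -0.13, against 0.01 over all genes, and 79 members were negative. DESeq2 called 5 members and 2.06% of all genes lower, and limma-voom with quality weights 23 members and 7.69% of all genes. Limma on log2 FPKM plus 1 called 2 members and 2.99% of all genes lower, on log2 FPKM plus 0.1 it called 2 members and 3.14%, and on log2 FPKM plus 1 with no filter it called 1 member and 0.808%. On the FPKM scale the members' share was thus near that of all genes. Without SNI Gfp library 6, edgeR called 7 members lower, and without Sham Gfp library 3 it called 9. The share of all genes called in these fits was not counted, so neither value is set against a background. The microglia and interferon lists were lower here too in the sign of all 13 genes each, with median log2 fold changes of -0.69 and -1.66, and 0 of these genes passed in edgeR, where 11 and 13 had an unadjusted p under 0.05. Their part in the members' fold changes was not tested.

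Rps24 had the smallest p of the members. Its lowest, median and highest libraries were 102, 109 and 113 CPM in SNI Gfp, against 117, 124 and 132 CPM in Sham Gfp. It was the 1 member (1.23%) with no overlap of the groups and all SNI Gfp libraries lower, while 0.143% of all genes were so separated. In the other direction stood 0 members and 0.16% of all genes. The log2 fold change was -0.20 (SE 0.046, edgeR adjusted p = 0.0929). Rps9 followed, with 113, 127 and 142 CPM in SNI Gfp, against 129, 155 and 167 CPM in Sham Gfp (log2 fold change -0.25, SE 0.068, edgeR adjusted p = 0.0964), with overlap. Rps10 (-0.20), Rpl32 (-0.22) and Rps13 (-0.21) had adjusted p of 0.103, 0.107 and 0.107 in edgeR. The stalk base Rplp0 stood at -0.22 and Rps27a at -0.26, with adjusted p of 0.181 and 0.129 in edgeR. The 2 members above 0 were Rpl41, the smallest ribosomal protein (0.01), and Rps4l (0.01).

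Between the Mef2c and Gfp vectors in injured mice, differences were smaller. In SNI Mef2c against SNI Gfp, 0 of 81 members passed in edgeR, while of all genes 0.00421% were higher and 0.0% lower. DESeq2 and limma-voom also called 0 members, and their share of all genes called was not counted. The median log2 fold change was -0.06 with 74 members negative, against a median of 0.00 over all genes. An unadjusted p under 0.05 was found for 7 of 81 members, a smaller share than the 14.3% of all genes. Without SNI Mef2c library 1 the median was -0.03 and 0 members passed. No member separated the groups fully, while 0.227% of all genes did so with SNI Mef2c lower and 0.329% with it higher. Rpl23, a protein that can bind MDM2, had the smallest p. It had 60.9, 66.7 and 71.7 CPM in SNI Mef2c, against 68.8, 71.7 and 78.3 CPM in SNI Gfp (log2 fold change -0.14, SE 0.052, edgeR adjusted p = 0.237). The groups overlapped. Rpl36a (-0.13), Rpl39 (-0.17) and Rps27l (-0.21) were among the next, with adjusted p from 0.279 to 0.305 in edgeR. The immune lists were negative here as well, in 13 of 13 interferon response genes (median log2 fold change -2.02), 13 of 13 microglia markers (-0.57) and 11 of 12 lymphocyte markers (-3.03). None of them passed in edgeR, where 13, 9 and 11 had an unadjusted p under 0.05. The 13 mitochondrially encoded genes were all positive (median 0.19), as were the 11 medium spiny neuron markers (0.28), and 0 of either list passed in edgeR, with 11 and 0 at an unadjusted p under 0.05. The part of these lists in the members' values was not tested.

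Between injured and sham mice with the Mef2c vector, members had fold changes of both signs. In SNI Mef2c against Sham Mef2c, 0 of 81 members passed in edgeR, as did 0.0% of all genes. DESeq2 and limma-voom also called 0 members, and their share of all genes called was not counted. An unadjusted p under 0.05 was found for 6 of 81 members, a smaller share than the 16.1% of all genes. The median log2 fold change was -0.04 with 61 members negative and 20 positive. Without Sham Mef2c libraries 2 and 5 the median was -0.02, with 53 members negative, and 0 members passed. Without SNI Mef2c library 1 it was -0.01. With scaling by library size alone 73 were negative. No member separated the groups fully, while 0.695% of all genes did so with SNI Mef2c lower and 0.4% with it higher. Without Sham Mef2c libraries 2 and 5 Rpl3l alone (1.23%) was fully separated, with SNI Mef2c higher, against 0.695% of all genes, and 0 members with SNI Mef2c lower, against 1.06%. Rpl31, which lies beside the exit tunnel and shares its span with Tbc1d8, had 70.0, 82.3 and 95.7 CPM in SNI Mef2c, against 62.5, 69.0 and 79.9 CPM in Sham Mef2c (log2 fold change 0.25, SE 0.078, edgeR adjusted p = 0.223). The groups overlapped. Rpl3l was also positive, with 0.730, 0.791 and 1.02 CPM in SNI Mef2c, against 0.460, 0.560 and 0.739 CPM in Sham Mef2c (log2 fold change 0.45, SE 0.167, edgeR adjusted p = 0.229). Rps15a, Rpl21 and Rpl9 were negative at -0.12, -0.23 and -0.11, with adjusted p from 0.263 to 0.288 in edgeR. The stalk genes stood at 0.00 to 0.01. In this comparison the microglia and interferon lists had median log2 fold changes of 0.05 and 0.04. Neuronal markers moved more, with 9 of 9 cortical neuron markers positive at a median of 2.22 and 11 of 11 medium spiny neuron markers positive at a median of 0.40. None of these passed in edgeR, where 4 and 0 had an unadjusted p under 0.05. Without Sham Mef2c libraries 2 and 5 the medians of the cortical and medium spiny neuron markers were 1.996 and 0.267. The part of the medium spiny neuron markers in the members' values was not tested. A fit with the mean of the cortical markers as covariate was run as an alternative, and its values for this comparison are not given here.

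The interaction, the difference between the injury fold changes under the Mef2c and Gfp vectors, was positive for 67 of the 81 members. Its median over the members was 0.08 on the log2 scale, against 0.00 over all genes. In edgeR 0 members passed, as did 0.0% of all genes, and an unadjusted p under 0.05 was found for 13 of 81 members, near the 14.9% of all genes. DESeq2 also called 0 members, and its share of all genes called was not counted. Limma-voom with quality weights called 14 members and 8.38% of all genes higher. Without Sham Mef2c libraries 2 and 5 the median was 0.10 with 73 members positive, and without SNI Mef2c library 1 the median was 0.11. In edgeR 0 members passed each time. The smallest p-values were those of Rps27a (0.41, SE 0.116), Rpl3l (0.73, SE 0.231), Rpl22 (0.27, SE 0.090), Rpl31 (0.32, SE 0.110) and Rps13 (0.23, SE 0.085), each with an edgeR adjusted p of 0.313. Between the vectors, the log2 fold change of Rps27a was 0.06 in injured mice (SNI Mef2c against SNI Gfp) and -0.35 in sham mice (Sham Mef2c against Sham Gfp). The test of that difference is the interaction just given, which Rps27a did not pass. The interaction was positive for 13 of 13 interferon response genes (median 1.77), 12 of 13 microglia markers (0.86) and 10 of 12 lymphocyte markers (1.38). It was also positive for 7 of 9 cortical neuron markers (2.35). None of these passed in edgeR, where 13, 11, 1 and 1 of the 4 lists had an unadjusted p under 0.05. Their part in the members' interaction was not tested.

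Other genes of translation were read beside the members. Of 21 other mRNAs with a TOP tract, 4 were lower and 0 higher in Sham Mef2c against Sham Gfp, with a median log2 fold change of -0.06. These were Pabpc1, the poly(A)-binding protein (-0.54, SE 0.111, edgeR adjusted p = 0.00179), Tpt1, coding for TCTP (-0.29, adjusted p = 0.00212), Rack1, a scaffold on the small subunit (-0.27, adjusted p = 0.00965), and Fau, whose product includes the small subunit protein eS30 (-0.19, adjusted p = 0.0400). Pabpc1 averaged 133 ± 13.8 CPM in Sham Mef2c and 193 ± 32.9 CPM in Sham Gfp (SD, n = 6 each). Its libraries ranged from 112 to 148 CPM in Sham Mef2c and from 140 to 235 CPM in Sham Gfp, so the groups overlapped.

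Of 35 ribosome biogenesis genes, Fbl, the snoRNA-guided rRNA methyltransferase fibrillarin, was lower in Sham Mef2c (log2 fold change -0.22, edgeR adjusted p = 0.0101). The RNA polymerase I initiation factor gene Rrn3 (0.14) and Rrp1 (0.11) were higher, both with an adjusted p of 0.0493 in edgeR. The median of that list was -0.01. Without Sham Mef2c libraries 2 and 5, Pabpc1, Tpt1, Rack1 and Fbl were still lower, and no other gene of the TOP, biogenesis or mitochondrial ribosomal protein lists passed in edgeR. None of 24 translation initiation factor genes, 19 genes of mTOR signalling and TOP regulation or 13 genes of ribosome quality control passed in edgeR, where 4, 3 and 1 of them had an unadjusted p under 0.05, and their medians were 0.02, 0.06 and 0.02. Of 78 genes for mitochondrial ribosomal proteins, 1 was higher, Mrpl49 (0.14, adjusted p = 0.0399, overlapping Syvn1), and 0 were lower, with a median of 0.04 in edgeR. In the other 3 pairwise comparisons no gene of these 6 lists passed in edgeR, the smallest adjusted p being 0.140 in SNI Gfp against Sham Gfp, 0.116 in SNI Mef2c against SNI Gfp and 0.223 in SNI Mef2c against Sham Mef2c.

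**Figure D5:**
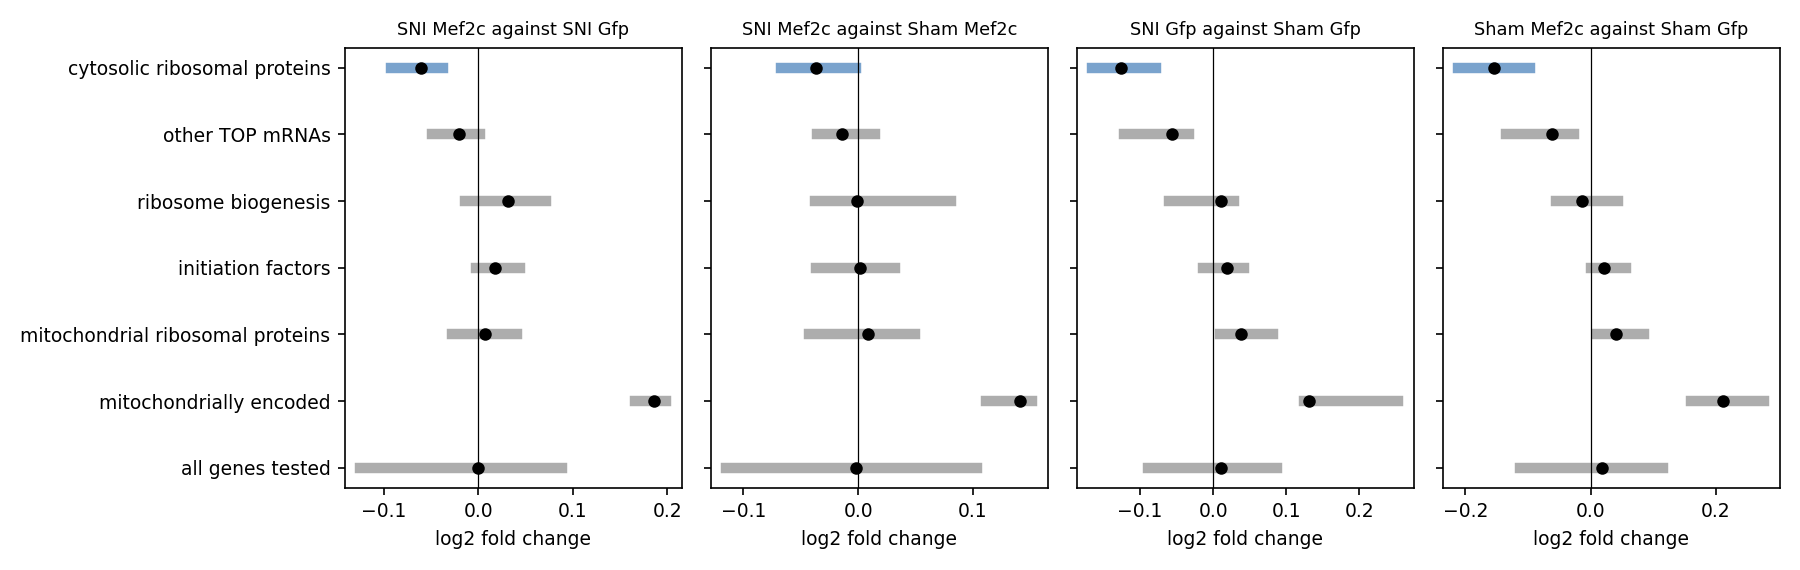
Log2 fold changes in the 4 pairwise comparisons for the 81 cytosolic ribosomal protein genes, 21 other TOP mRNAs, 35 biogenesis genes, 24 initiation factors, 78 mitochondrial ribosomal protein genes, 13 mitochondrially encoded genes and all genes tested. The dot is the median and the bar spans the middle 50% of genes, and x axes differ between panels. The cytosolic ribosomal protein median lies below 0 in every panel, from -0.15 to -0.04, and the mitochondrial ribosomal protein median lies between 0.01 and 0.04.

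Promoter sequences were examined because many members moved together. RefSeq promoters (GRCm38.p6, the mm10 assembly, from 250 bases before to 50 bases after a transcript start) were found for 59 of the 81 members, 71 promoters in all. On both strands, 5 motifs were searched. No motif contains another, though neighbouring matches can share end bases, and the motifs were chosen after the expression values were known. The core that ETS transcription factors bind, searched as the letters CCGGAA, was in a promoter of 32 of 59 members (54.2%), against 16.7% of 27025 genes in the table. The GC box known from many promoters of widely expressed genes, searched as the letters GGGCGG, was found for 59.3% of members and for 38.2% of all genes in the table. The core of sites for the zinc finger factor YY1, searched as the letters AAGATGG, was found for 15.3% of members and for 7.28% of all genes in the table. The TATA box, which places the start of transcription in a minority of promoters and was searched as the letters TATAAA, was found for 11.9% of members and for 15.7% of all genes in the table. A pyrimidine run surrounds the start of ribosomal protein transcripts. The letters CTTTCC, searched for such a run, were found for 50.8% of members and for 29.3% of all genes in the table. Matches were counted on either strand and anywhere in the promoter, so they need not be a pyrimidine run at the start. Between members called lower in Sham Mef2c and members not called, the ETS core was about as common, in 10 of 19 (52.6%) and 22 of 40 (55.0%). The GC box was in 11 of 19 called members (57.9%) and 24 of 40 not called (60.0%), and the YY1 core in 2 of 19 (10.5%) and 7 of 40 (17.5%). The TATA box was in 4 of 19 called members (21.1%) and 3 of 40 not called (7.5%), and the pyrimidine run in 8 of 19 (42.1%) and 22 of 40 (55.0%). These shares are counts over few genes and were not tested. A match is a description of the letters, not of binding.

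The windows of 3 members called lower in Sham Mef2c show where the core lies, from 150 bases before the start to base 20 of the transcript. They are the first such members by p that hold the core there and overlap no gene with more counts. They are Rps6 (chr4:86857348-86857517, minus strand), Rpl27 (chr11:101442095-101442264, plus strand) and Rplp2 (chr7:141447501-141447670, plus strand), written 5' to 3' along the gene with the ETS core or its reverse complement in capitals. In Rpl27 the core occurs 2 times in a row just before the start, and in Rplp2 it lies on the opposite strand.
Rps6: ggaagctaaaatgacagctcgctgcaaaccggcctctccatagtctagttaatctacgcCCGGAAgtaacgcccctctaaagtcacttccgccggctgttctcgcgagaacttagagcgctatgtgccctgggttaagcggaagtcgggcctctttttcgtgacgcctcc
Rpl27: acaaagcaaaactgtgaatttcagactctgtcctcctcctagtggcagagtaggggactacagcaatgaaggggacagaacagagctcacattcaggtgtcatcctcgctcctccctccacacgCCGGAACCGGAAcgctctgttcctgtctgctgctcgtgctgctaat
Rplp2: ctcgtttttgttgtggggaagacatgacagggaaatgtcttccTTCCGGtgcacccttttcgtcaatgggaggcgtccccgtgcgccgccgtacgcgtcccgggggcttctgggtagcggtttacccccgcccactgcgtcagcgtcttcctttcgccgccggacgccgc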

How the data were processed

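The authors deposited raw counts per gene and FPKM, made with featureCounts on mm10 per the submitters' processing notes; for the aligner, annotation and versions, nothing is given in the sources used here. Tested on the files, the deposited FPKM equalled counts scaled by library total and gene span, introns included, for 100% of values. Within groups, no pair of libraries was a copy (lowest chi-square per degree of freedom 3.22 over 60 pairs). The labels' sequencing index runs by group, so any order of preparation that followed it cannot be told apart from the groups, and p-values measure the spread between libraries.

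Symbols and spans came from GENCODE M21, with 54349 of 55401 IDs matched with their version. Counts were fitted with edgeR 4.0.16 in R 4.3.3 (filterByExpr, TMM, robust quasi-likelihood, 1 coefficient per group, 24 libraries, 20 residual degrees of freedom). P-values are two-sided and adjusted by Benjamini and Hochberg over 23738 genes, with a threshold of 0.05. CPM are TMM-scaled, and list means are log2 CPM with a prior count of 2. Alternatives were other scalings and filters, DESeq2 1.42.0, limma 3.58.1 (voom with quality weights, and log2 of FPKM plus 1 or 0.1), a replicate block, the compared groups alone, a cortical marker covariate, overlap-free members, and leaving out each library. For the shares of counts, a total without the mitochondrially encoded counts was another. The members and gene lists were chosen with earlier results of these data known, and Sham Mef2c libraries 2 and 5 were left out together as an alternative added after seeing the data. Named members were up to 15 per comparison with the smallest adjusted p, the 5 smallest p where fewer passed, the 5 highest and 5 lowest by FPKM, the 5 most variable, the stalk genes, Rpsa, Rps27a, the paralogues in l, and those overlapping a gene with more counts. Most other called members were named too, after their values were seen, and some members are counted but not reported by name here. The edgeR script was checked on simulated data.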

Additional observations from a re-analysis of the deposited data

Results flagged for a closer look

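Among 44 named members, and the members' shares of counts, 192 groups of 6 libraries were examined for a library standing apart, meaning a gap to the nearest other library relative to the group's range above Dixon's critical value. Chance flags about 5% of groups, and 7 were found here. The highest library stood apart for Rpl3l in SNI Mef2c (library 4, 1.02 CPM), for Rps27l in SNI Gfp (library 6, 8.91 CPM) and for Rpl32l in SNI Gfp (library 4, 2.84 CPM). It also did so for Rpl29 in Sham Mef2c (library 3, 2.87 CPM) and for Rpl11 in Sham Mef2c (library 2, 76.5 CPM). The lowest library stood apart for Rps27a in SNI Mef2c (library 1, 26.4 CPM) and for Rpl35a in SNI Gfp (library 1, 18.8 CPM). SNI Mef2c library 1 also had the lowest share of counts in ribosomal protein genes of all 24 libraries, 0.434%. Its markers stood apart too: medium spiny neuron markers summed to 2164 CPM (5379 to 6380 CPM in the other 5 libraries of its group), cortical neuron markers to 1688 CPM (182.1 to 518.8 CPM), oligodendrocyte markers to 4009 CPM (2266 to 3412 CPM) and endothelial markers to 327.1 CPM (221.4 to 261.0 CPM). Their part in the low values was not tested.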

How the results depend on the processing

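Of 14899 values of single members under an alternative, 0 changed sign among called values, 139 lost their call and 139 gained one. In Sham Mef2c against Sham Gfp the count of members called lower was 26, with 15 to 36 when 1 library was left out (33 without Sham Mef2c library 2 and 36 without Sham Gfp library 3), 45 with limma-voom and 20 to 31 under the other alternatives. In SNI Gfp against Sham Gfp it was 0, with 0 to 9 when 1 library was left out, 5 with DESeq2, 23 with limma-voom, 2 on log2 FPKM plus 1, 2 on log2 FPKM plus 0.1 and 1 on log2 FPKM plus 1 with no filter. For the interaction, limma-voom called 14 members higher. The causes of these different counts were not tested. For the fits with 1 library left out and for the replicate block, the share of all genes called was not counted. In Sham Mef2c against Sham Gfp it was counted, beside the main fit, only for limma-voom and for the fit without Sham Mef2c libraries 2 and 5. The other counts there have no background. With 1 library left out, the members' median log2 fold change ranged from -0.19 to -0.12 in Sham Mef2c against Sham Gfp, from -0.14 to -0.10 in SNI Gfp against Sham Gfp, from -0.09 to -0.03 in SNI Mef2c against SNI Gfp, from -0.07 to -0.01 in SNI Mef2c against Sham Mef2c, and from 0.05 to 0.11 for the interaction. Shares of counts ranged over 0.489 to 0.509% in SNI Mef2c, 0.526 to 0.540% in SNI Gfp, 0.508 to 0.527% in Sham Mef2c and 0.575 to 0.595% in Sham Gfp. Over the 68 overlap-free members alone the shares were 0.440%, 0.473%, 0.462% and 0.521% in these groups, lower because fewer members were summed. Libraries with the same replicate number did not deviate together over all genes (correlations from -0.43 to 0.28). These correlations cannot show whether such libraries share anything beyond the number. With the replicate block 28 members were called lower in Sham Mef2c against Sham Gfp and 0 in each other comparison. Members under a few CPM, such as Rpl3l and Rpl29, are the ones that depth limits most.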
